A study of Mus musculus with 6 samples.

Results

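Expression in mouse liver was examined for 8 genes of lipases, angiopoietin-like proteins and lipoprotein remodeling: *Lipc*, *Lpl*, *Pnpla2*, *Mgll*, *Lcat*, *Pltp*, *Angptl4* and *Angptl8*. They were chosen by name for their roles from the 55401 genes of the deposited RNA-Seq table. Livers came from male mice on a C57/BL6 background, 13 weeks of age, after an overnight fast, with 1 library per mouse. WT mice (n = 3) were compared with *Asgr1*-/- mice (n = 3), in which CRISPR/Cas9 with a pair of guides had removed *Asgr1*, the major subunit of the hepatic asialoglycoprotein receptor, from every cell of the body. Both genotypes came from breeding of *Asgr1*+/- mice and carried no other named allele or treatment. All 8 genes were in the table and 7 passed the filter on low values. With edgeR, 0 of the 7 passed the test for a genotype difference and 1 had an unadjusted p under 0.05. With DESeq2 1 of the 7 passed, and with limma 0. Over all 10167 genes tested, 30 passed with edgeR, 248 with DESeq2 and 11 to 16 with limma. Of the 7, the nearest to passing with edgeR was *Lipc*, the hepatic lipase gene. Its level was lower in each *Asgr1*-/- liver than in each WT liver.

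Triglyceride carried in plasma lipoproteins is hydrolyzed by lipoprotein lipase (LPL), mainly on the capillary walls of muscle and fat. Hepatic lipase (LIPC), made in the liver, acts on remnant particles and HDL. ANGPTL4 and ANGPTL8 are secreted proteins that restrain LPL: ANGPTL4 is induced by fasting in many tissues, whereas ANGPTL8 is induced by feeding. Inside the cell, PNPLA2 (adipose triglyceride lipase) takes the first fatty acid from stored triglyceride and MGLL releases the last one from monoacylglycerol. In plasma, LCAT esterifies the cholesterol of HDL and PLTP moves phospholipid from triglyceride-rich particles to HDL.

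Upstream sequence is given for the 3 genes on which the description below turns: *Lipc*, whose groups did not overlap, *Pltp*, which had the widest range over the 6 livers, and *Mgll*, whose start lies under an antisense transcript that rose. RefSeq start sites (build GRCm38.p6) matched 6 of the 8 genes, with 2 sites each for *Lipc* and *Mgll* and 8 in all. The sequences are the 250 bases before a start site, 5′ to 3′ on the gene's own strand. Capitals mark matches on either strand to the CCAAT box, the E-box CACGTG or AGGTCA, the hexamer that many nuclear receptors bind.
Lipc, outer start site, chr9:70952222-70952471, minus strand: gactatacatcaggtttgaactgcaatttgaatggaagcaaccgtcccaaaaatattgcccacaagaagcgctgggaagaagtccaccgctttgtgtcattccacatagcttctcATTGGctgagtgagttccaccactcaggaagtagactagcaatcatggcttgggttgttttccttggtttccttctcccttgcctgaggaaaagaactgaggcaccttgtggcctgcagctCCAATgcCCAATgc
Lipc, inner start site, chr9:70934809-70935058, minus strand: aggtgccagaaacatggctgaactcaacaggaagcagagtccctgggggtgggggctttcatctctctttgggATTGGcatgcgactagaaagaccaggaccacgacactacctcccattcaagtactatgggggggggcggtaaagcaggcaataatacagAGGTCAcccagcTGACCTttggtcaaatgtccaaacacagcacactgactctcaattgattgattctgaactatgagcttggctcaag
Pltp, chr2:164857709-164857958, minus strand: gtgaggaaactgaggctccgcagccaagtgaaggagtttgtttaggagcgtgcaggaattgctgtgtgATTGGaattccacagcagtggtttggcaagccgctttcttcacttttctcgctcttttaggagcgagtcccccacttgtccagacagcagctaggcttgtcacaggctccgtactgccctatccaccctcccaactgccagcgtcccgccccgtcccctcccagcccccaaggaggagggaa
Mgll, outer start site, chr6:88724162-88724411, plus strand: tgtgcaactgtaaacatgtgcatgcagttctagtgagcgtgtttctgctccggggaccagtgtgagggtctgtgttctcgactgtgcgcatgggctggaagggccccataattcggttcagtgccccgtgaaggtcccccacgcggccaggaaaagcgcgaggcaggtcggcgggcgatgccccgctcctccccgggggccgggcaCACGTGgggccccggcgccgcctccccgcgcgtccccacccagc
CCAAT was found upstream of 4 of the 8 start sites and in 33.8% of all 32851 RefSeq windows of this length. AGGTCA was upstream of 1 of the 8, the inner *Lipc* site, where it occurred once on each strand beginning 88 and 76 bases before the start, against 14% of all windows. CACGTG, a palindrome that reads the same on both strands, was upstream of 1 of the 8, 44 bases before the outer *Mgll* site, against 6.02% of all windows. TATAAA (12.4% of all windows) and TCACNCCAC, the core of a sterol regulatory element (1.05%), were upstream of 0 of the 8. The deposited counts are summed over each gene, so they do not separate the 2 *Lipc* start sites.

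Total counts were between 20134006 and 21178121 in the WT livers and between 19842637 and 22080809 in the *Asgr1*-/- livers. *Asgr1* had 15894, 15463 and 11716 counts in the WT livers and 62, 40 and 36 in the *Asgr1*-/- livers, so each library matched its label. Tests were limited to the 10167 genes whose mean FPKM (fragments scaled to exon length and library size) reached 1, of which 30 passed the test, 14 higher and 16 lower in *Asgr1*-/- livers; this is 0.295% of those tested. Passing meant an adjusted p under 0.05 with edgeR's quasi-likelihood test and a fold above 1.5. The median log2 fold change (*Asgr1*-/- over WT) over all genes tested was -0.02. Markers of hepatocytes were abundant in each liver. All 14 Kupffer cell markers were detected in each liver, and their summed level ran from 143 CPM (counts scaled to library size with TMM factors) in WT liver 1 to 880 CPM in WT liver 3, so WT livers differed in these markers more than *Asgr1*-/- livers, which held 260 to 388 CPM.

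On the length-scaled FPKM scale, the 8 genes spanned a wide range of levels in fasted liver. In WT livers *Lcat* was highest with 479 FPKM, followed by *Angptl8* with 255, *Lipc* with 74.7, *Mgll* with 50.8, *Pnpla2* with 32.6, *Angptl4* with 24.3, *Pltp* with 17.6 and *Lpl* with 0.847. The values of *Pnpla2* and *Angptl4* overlapped across the 3 WT livers, as did those of *Angptl4* and *Pltp*, while the other neighbors in this order did not. *Lcat* had a higher mean FPKM over the 6 livers than 98.8% of the genes tested. In *Asgr1*-/- livers the order of the means was *Lcat* (459 FPKM), *Angptl8* (293), *Mgll* (58.2), *Lipc* (50.3), *Pnpla2* (30.6), *Angptl4* (29.4), *Pltp* (9.52) and *Lpl* (0.743). *Lipc* and *Mgll* therefore exchanged places in the order of the means, and their values overlapped in the *Asgr1*-/- livers, as did those of *Pnpla2* and *Angptl4*.

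**Figure D1:**
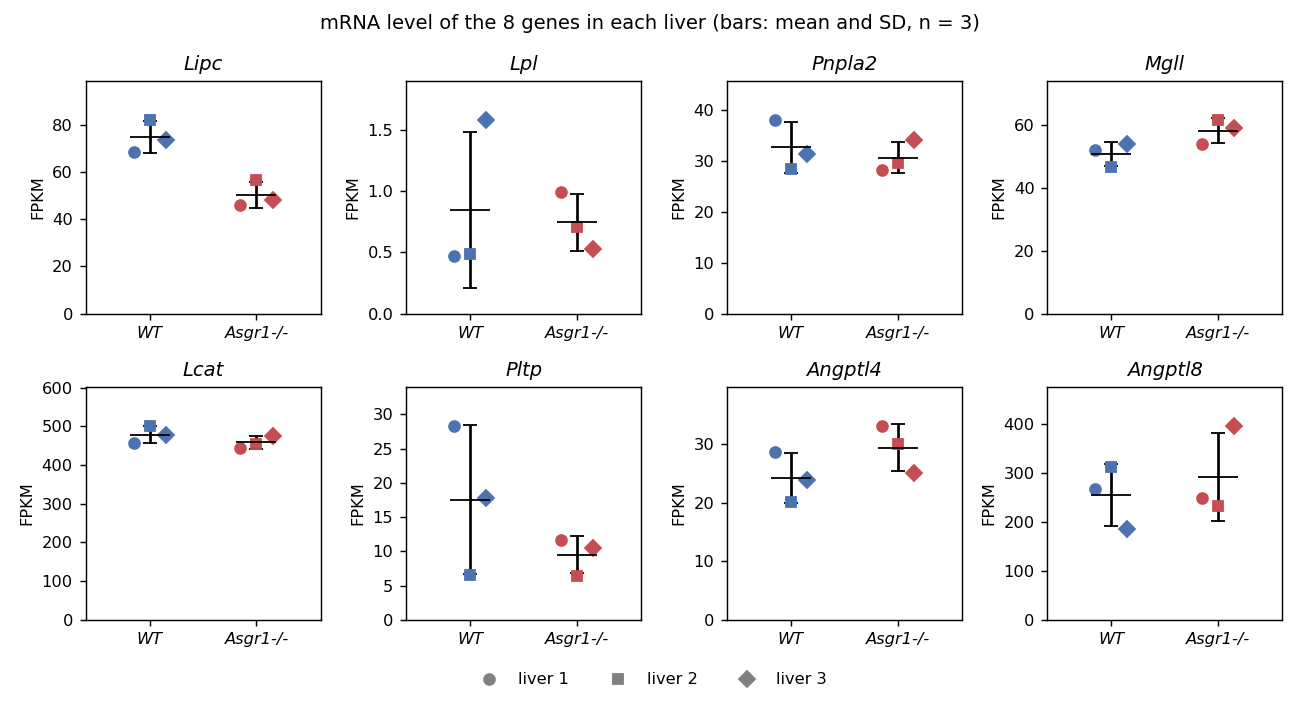
FPKM (vertical axis, from 0) of each of the 8 genes in the 3 WT and the 3 *Asgr1*-/- livers. Points are livers, horizontal bars the mean and error bars the SD (n = 3). Only the *Lipc* groups do not overlap, and *Lpl* and *Pltp* spread more widely among the WT livers than among the *Asgr1*-/- livers.

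Among the secreted lipases, *Lipc* (ENSMUSG00000032207, chr9:70798128-70952226, minus strand, 2150 exonic bases) was the gene with the smallest p of the 8. Hepatic lipase is secreted by hepatocytes. The *Lipc* level was 153, 184 and 161 CPM in the WT livers and 96.8, 121 and 104 CPM in the *Asgr1*-/- livers. The highest *Asgr1*-/- liver was below the lowest WT liver. Group means were 166 ± 16.2 CPM (SD, n = 3) in WT and 107 ± 12.5 CPM (SD, n = 3) in *Asgr1*-/- livers, a log2 fold change of -0.63 (SE 0.12, 95% interval -0.91 to -0.35), or a level 1.55 times lower. The edgeR quasi-likelihood p was 0.000604, and 92 of the 10167 genes had a smaller one. After Benjamini-Hochberg adjustment it was 0.0656, so *Lipc* did not pass. The exact two-sided permutation p over livers was 0.1, the smallest that 3 against 3 can give.

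*Lipc* was the only 1 of the 7 tested genes with an unadjusted p under 0.05, which 15.5% of all genes tested had. It was also the only 1 of the 7 whose groups did not overlap, against 21.9% of all genes tested in either direction and 10.9% in the lower direction, so the share among the 7 was near the background. The adjusted p of *Lipc* lay between 0.000731 and 0.299 over 15 alternatives, and it passed the test with DESeq2 (adjusted p = 0.000731), without a filter on low values (0.0014) and without WT liver 3 (0.0415). The summed level of 8 hepatocyte markers, all detected in each liver, was 81540 to 93844 CPM in the WT livers and 71035 to 79390 CPM in the *Asgr1*-/- livers, also without overlap. Most of this sum was *Alb*, with 61065 to 70896 CPM in the WT livers and 49640 to 58162 CPM in the *Asgr1*-/- livers. By gene, 3 of the 8 were lower and 1 higher without overlap, against 21.9% of all genes tested in either direction. Of these 8 markers 7 were lower in *Asgr1*-/- livers, 0 passed, and the median log2 fold change was -0.14. The smallest p values among them were those of *Ass1* (0.28, edgeR adjusted p = 0.301) and *Alb* (-0.27, edgeR adjusted p = 0.364). Their part in the *Lipc* difference was not tested. In bulk liver, fewer cells of a type and less RNA per cell cannot be told apart.

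*Lpl* (ENSMUSG00000015568, chr8:68880491-68907448, plus strand, 10478 exonic bases), a gene of low expression in adult liver, had 100, 109 and 333 counts in the WT livers and 230, 147 and 112 in the *Asgr1*-/- livers. These were 5.14, 5.36 and 16.8 CPM and 10.2, 7.37 and 5.54 CPM. WT liver 3 was the highest of the 6, the other WT livers were the lowest, and the groups overlapped fully. The mean FPKM over all livers was 0.795, under the filter, so its test comes from a fit of all 24757 genes with a count above 0. There the log2 fold change was -0.22 (SE 0.23, 95% interval -0.67 to 0.23, edgeR adjusted p = 0.738). When the 16512 genes whose mean FPKM reached 0.1 were fitted instead, it was -0.21 with a wider error (SE 0.40, 95% interval -1.10 to 0.68). Without WT liver 3 the value turned positive, at 0.55 (adjusted p = 0.216).

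The tested genes whose levels were most like those of *Lpl* over the 6 livers were *Ncf1*, a subunit of the phagocyte NADPH oxidase, *Tor4a*, and *Tyrobp*, an adaptor protein of myeloid cells. Their mean absolute differences from *Lpl*, in log2 CPM centered on each gene's own mean, were 0.11, 0.12 and 0.16. The median log2 level of the 14 Kupffer cell markers, relative to the WT mean, was -1.58, -0.02 and 1.63 in the WT livers and 0.28, -0.10 and -0.37 in the *Asgr1*-/- livers. *Lpl* on that scale was at -0.59, -0.53 and 1.12, and at 0.40, -0.07 and -0.48. WT liver 3 was highest and *Asgr1*-/- liver 1 second for *Lpl* as well as for this list, and none of the 14 markers was at 0 in any liver. The 14 markers of liver endothelial cells summed to 268, 393 and 628 CPM in the WT livers and to 474, 325 and 352 CPM in the *Asgr1*-/- livers, with the same livers first and second. The 10 markers of stellate cells and fibroblasts, all detected in each liver, had these livers first and second too, with 231, 259 and 401 CPM in the WT livers and 326, 288 and 304 CPM in the *Asgr1*-/- livers; of the 7 tested, 0 passed (median log2 fold change -0.02), with the smallest p values for *Dcn* (0.30, edgeR adjusted p = 0.451) and *Des* (0.42, edgeR adjusted p = 0.592). Of the 14 Kupffer cell markers 14 were lower in *Asgr1*-/- livers by fold change and 0 passed (median log2 fold change -0.58). The smallest p values were those of *Slc40a1* (-0.34, edgeR adjusted p = 0.493) and *Folr2* (-0.97, edgeR adjusted p = 0.559). The groups did not separate for any of the 14, whereas they did for 21.9% of all genes tested. WT liver 1, with a sum of 143 CPM, was below each *Asgr1*-/- liver (260 to 388 CPM), and WT liver 3, with 880 CPM, was above. Of the 14 endothelial markers 11 were lower and 0 passed (-0.17), with the smallest p values for *Egfl7* (-0.24, edgeR adjusted p = 0.444) and *Lyve1* (-0.62, edgeR adjusted p = 0.578). Markers of adipocytes, cells that make much LPL, summed to 21.7, 7.62 and 11.2 CPM in the WT livers. In the *Asgr1*-/- livers they summed to 9.76, 10.4 and 7.82 CPM, and *Lep* was at 0 counts in each liver. WT liver 1 was thus the highest for this list, whereas it was the lowest for *Lpl*. The part of these cells in the *Lpl* values was not tested.

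**Figure D2:**
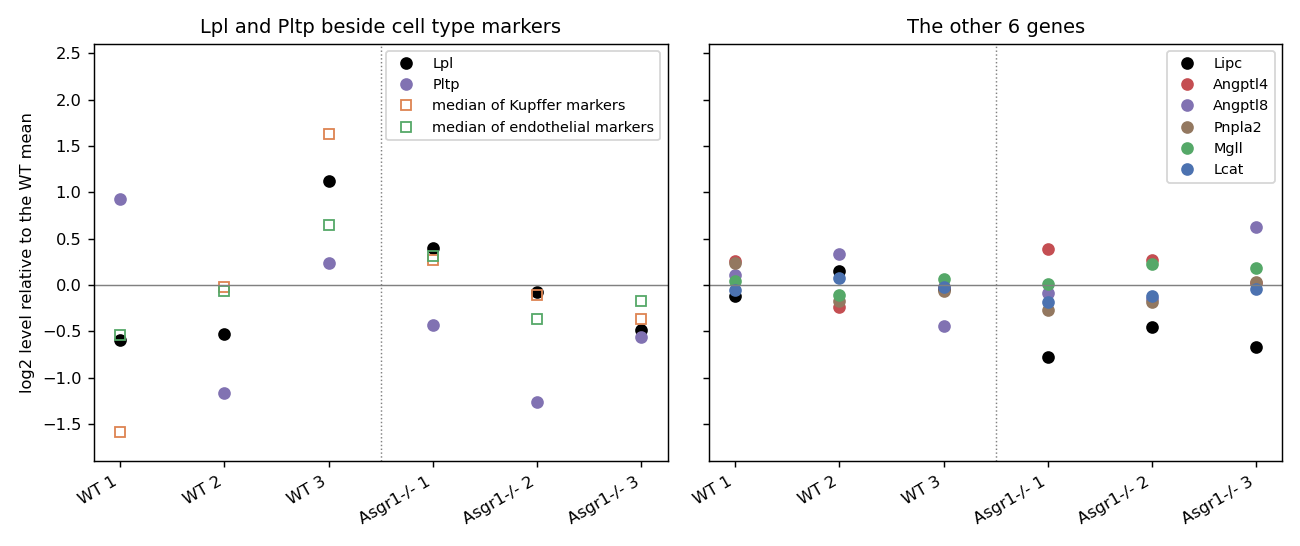
Log2 level of each gene in the 6 livers relative to its WT mean (vertical axis), with livers on the horizontal axis and a dotted line between genotypes. Squares in the left panel are medians of 14 Kupffer cell and 14 endothelial markers: WT liver 3 is the highest for *Lpl* and for both marker lists, whereas *Pltp* is highest in WT liver 1. In the right panel *Lipc* is below the WT mean in each *Asgr1*-/- liver, and *Angptl8* is highest in *Asgr1*-/- liver 3.

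Of the intracellular lipases, *Pnpla2* and *Mgll* overlapped between genotypes. *Pnpla2* (ENSMUSG00000025509, chr7:141455198-141460743, plus strand, 3020 exonic bases) was at 119, 89.4 and 96.2 CPM in the WT livers and at 83.3, 88.8 and 103 CPM in the *Asgr1*-/- livers. The groups overlapped, with WT liver 1 the highest and *Asgr1*-/- liver 1 the lowest. The log2 fold change was -0.15 (SE 0.14, 95% interval -0.45 to 0.16, edgeR adjusted p = 0.644). *Mgll* (ENSMUSG00000033174, chr6:88724412-88828360, plus strand, 5077 exonic bases) was at 274, 246 and 278 CPM in the WT livers and at 268, 311 and 301 CPM in the *Asgr1*-/- livers. Here 2 *Asgr1*-/- livers were above each WT liver and the other lay within the WT range. The log2 fold change of *Mgll* was 0.14 (SE 0.11, 95% interval -0.11 to 0.39, edgeR adjusted p = 0.571). Both intervals lie inside a 1.5-fold change in either direction.

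The antisense transcript *Gm26588* (ENSMUSG00000097730, chr6:88716422-88725860, minus strand) lies across the outer start site of *Mgll*, whose upstream sequence is printed above, and shares 167 exonic bases with it, 3.29% of the *Mgll* exons. *Gm26588* rose, with 131, 98 and 127 counts in the WT livers and 320, 282 and 274 in the *Asgr1*-/- livers. Its level was 5.99 ± 1.03 CPM (SD, n = 3) in WT and 14.0 ± 0.348 CPM (SD, n = 3) in *Asgr1*-/- livers, a log2 fold change of 1.22 (SE 0.17, edgeR adjusted p = 0.0245), and each *Asgr1*-/- liver was above each WT liver. The adjusted p of *Gm26588* lay between 1.1e-06 and 0.148 over the 15 alternatives. It was above 0.05 with limma on log2(FPKM + 0.1) (0.072), with the replicate number as a block (0.0573), after removal of WT liver 2 (0.0751) and after removal of *Asgr1*-/- liver 1 (0.148), 2 (0.0808) or 3 (0.134). Whether the authors counted by strand is not given in the sources used here, so reads in the shared bases cannot be assigned to *Mgll* or *Gm26588*, and whether the transcripts are related was not tested.

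Of the genes of HDL remodeling, *Lcat* was the most even and *Pltp* the most uneven. *Lcat* (ENSMUSG00000035237, chr8:105939551-105943382, minus strand, 1342 exonic bases) had 637, 701 and 651 CPM in the WT livers and 584, 609 and 642 CPM in the *Asgr1*-/- livers. Its SD was 5.05% of the mean in WT and 4.76% in *Asgr1*-/- livers. The groups overlapped through the highest *Asgr1*-/- liver, and the log2 fold change was -0.12 (SE 0.10, 95% interval -0.35 to 0.12, edgeR adjusted p = 0.626). *Lcat* lies inside the antisense model *Gm16156* with no shared exonic base, and that model had at most 17 counts in any liver.

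*Pltp* (ENSMUSG00000017754, chr2:164839518-164857711, minus strand, 2562 exonic bases) had 1460, 357 and 918 counts in the WT livers and 661, 328 and 541 in the *Asgr1*-/- livers. This was 75.1, 17.6 and 46.3 CPM against 29.3, 16.4 and 26.8 CPM. WT livers 1 and 3 were above each *Asgr1*-/- liver, but WT liver 2 was near the lowest *Asgr1*-/- liver, so the groups overlapped. The highest WT value was 4.28 times the lowest, and the SD was 62.1% of the mean in WT and 28.2% in *Asgr1*-/- livers. Group means were 46.3 ± 28.8 CPM (SD, n = 3) in WT and 24.2 ± 6.82 CPM (SD, n = 3) in *Asgr1*-/- livers. The log2 fold change of -0.94 had the widest error of the 7 tested genes (SE 0.43, 95% interval -1.91 to 0.03, edgeR adjusted p = 0.337). It was -0.40 without WT liver 1 and -1.33 without WT liver 2. Without a filter on low values its error was smaller (SE 0.18) and *Pltp* passed (adjusted p = 9.45e-05). The WT order of *Pltp* differed from that of the Kupffer cell markers, since WT liver 1 was the highest for *Pltp* and the lowest for the markers. The nearest tested genes by likeness, the predicted genes *Gm23969*, *Gm10226* and *Gm20544*, were each 0.26 away on the centered log2 CPM scale. At its 3′ end *Pltp* shares 495 exonic bases, 19.3% of its exons, with *Ctsa*, the cathepsin A gene on the opposite strand. *Ctsa* was at 195 ± 17.7 CPM (SD, n = 3) in WT and 178 ± 11.1 CPM (SD, n = 3) in *Asgr1*-/- livers (log2 fold change -0.13, SE 0.11, edgeR adjusted p = 0.592), and shared reads cannot be assigned to either gene here.

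The LPL inhibitor genes were not separated by genotype. *Angptl4* (ENSMUSG00000002289, chr17:33773750-33781830, minus strand, 3541 exonic bases) was at 105, 74.4 and 86.2 CPM in the WT livers and at 115, 106 and 89.4 CPM in the *Asgr1*-/- livers. WT liver 1 fell between the *Asgr1*-/- livers, while the other WT livers were below all 3. The log2 fold change of *Angptl4* was 0.22 (SE 0.15, 95% interval -0.12 to 0.56, edgeR adjusted p = 0.515). *Angptl8* (ENSMUSG00000047822, chr9:21835510-21837347, plus strand, 865 exonic bases) was at 239, 281 and 164 CPM in the WT livers and at 211, 201 and 344 CPM in the *Asgr1*-/- livers. The highest liver was *Asgr1*-/- and the lowest was WT, and of the remaining 4 livers the WT livers were the higher. The log2 fold change of *Angptl8* was 0.14 (SE 0.24, 95% interval -0.40 to 0.68, edgeR adjusted p = 0.817), and it turned negative without *Asgr1*-/- liver 3 (-0.14) or without WT liver 3 (-0.05). In each fasted liver the *Angptl8* FPKM was higher than that of *Angptl4*, by 7.50 to 15.7 times. The tested genes nearest to *Angptl8* by likeness were the predicted genes *Gm25492* (0.093), *Gm6180* (0.11) and *Gm42984* (0.11). *Angptl8* lies inside *Dock6*, on the opposite strand, with no shared exonic base. *Dock6*, which encodes a guanine nucleotide exchange factor, was at 39.2, 26.7 and 31.4 CPM in the WT livers and at 52.4, 48.3 and 45.8 CPM in the *Asgr1*-/- livers. Its groups did not overlap, as was found for 21.9% of all genes tested. The log2 fold change of 0.59 (SE 0.15) did not pass the test (edgeR adjusted p = 0.119). Its adjusted p was under 0.05 in 3 of the 15 alternatives, among them DESeq2 (0.0187). *Dock6* and *Aqp9*, a glycerol channel gene, had the 2 smallest p values in the list of models next to or over any of the 8 genes. *Aqp9* overlaps none of the 8 and is not named here for its place beside *Angptl8*. It differed by -0.18 (edgeR adjusted p = 0.545).

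**Figure D3:**
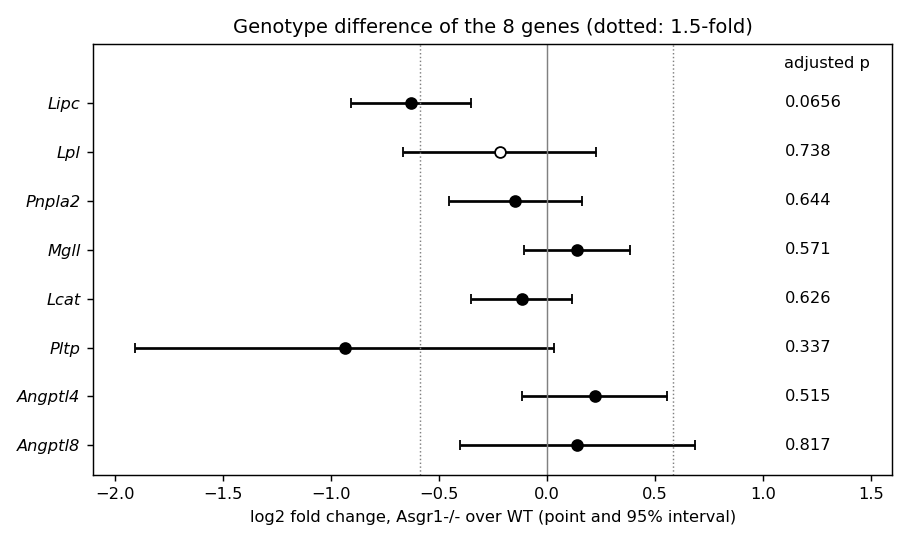
Log2 fold change (*Asgr1*-/- over WT) of the 8 genes from edgeR, with 95% intervals and adjusted p; dotted lines mark a 1.5-fold change. The open point for *Lpl* comes from the fit without a filter (SE 0.23), whereas with the filter at 0.1 FPKM its SE was 0.40. The width of its interval is therefore not comparable with the others. Only the *Lipc* interval, from -0.91 to -0.35, lies wholly on 1 side of 0, and no adjusted p is under 0.05.

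The surrounding pathways were examined in 7 lists with 120 genes, of which 103 were tested. Of these 0 passed with edgeR, against 6 with DESeq2 and 0 with limma. The 6 included *Lipe* (DESeq2 adjusted p = 0.00179), *G0s2* (0.0105), *Ppara* (0.0113) and *Elovl6* (2.83e-05), which are described below with their edgeR values. Over all 10167 genes tested, 30 passed with edgeR, 248 with DESeq2 and 11 to 16 with limma. An unadjusted p under 0.05 was found for 17 of the 103, 9 lower and 8 higher in *Asgr1*-/- livers, against 15.5% of all genes tested. The 8 genes themselves had a median log2 fold change of -0.12 over the 7 tested, 4 lower and 3 higher, beside -0.02 over all genes tested. Of 14 tested genes for LPL maturation, anchoring and cofactors, 6 were higher and 8 lower (median -0.07). *Sort1*, which encodes the sorting receptor sortilin, had a log2 fold change of 0.58 (SE 0.22, edgeR adjusted p = 0.256).

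Of 20 tested genes of intracellular lipolysis and the lipid droplet, 10 were higher and 10 lower (median -0.02). Of the 20, 6 had an unadjusted p under 0.05, 3 in each direction, against 15.5% of all genes tested. The groups did not overlap for 4 lower and 3 higher genes of the 20, against 21.9% of all genes tested. *Lipe*, the hormone-sensitive lipase that acts after PNPLA2, was at 37.3, 37.1 and 40.7 CPM in the WT livers and at 23.9, 25.9 and 26.8 CPM in the *Asgr1*-/- livers. The groups did not overlap, and the log2 fold change was -0.59 (SE 0.11, edgeR adjusted p = 0.0623). *G0s2*, which encodes an inhibitor of PNPLA2, was at 442, 286 and 298 CPM in the WT livers and at 137, 150 and 264 CPM in the *Asgr1*-/- livers. Its groups did not overlap either, and the log2 fold change was -0.90 (SE 0.26, edgeR adjusted p = 0.163). *Pnpla2* itself, between these genes in the pathway, differed by -0.15.

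Of 16 tested genes of HDL formation and remodeling, 3 were higher and 13 lower (median -0.08). *Pon1*, the HDL-bound paraoxonase, had a log2 fold change of -0.35 (SE 0.13, edgeR adjusted p = 0.248). *Lipg*, the endothelial lipase closest in family to *Lipc* and *Lpl*, was at 20.4, 22.3 and 12.4 CPM in the WT livers and at 13.7, 10.7 and 13.8 CPM in the *Asgr1*-/- livers. These values overlapped through WT liver 3, and the log2 fold change was -0.53 (SE 0.22, edgeR adjusted p = 0.287). Among 21 other genes of the lipase families 9 were tested, with 4 higher and 5 lower (median -0.10).

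The fasting and feeding programs that act on *Angptl4* and *Angptl8* were described by separate lists. Of 23 tested fasting and PPARalpha targets, 5 were higher and 18 lower (median -0.10). The groups did not overlap for 3 of the 23, all lower, against 21.9% of all genes tested. *Ppara*, the fasting-activated nuclear receptor, was at 56.9, 71.1 and 44.9 CPM in the WT livers and at 36.1, 35.6 and 37.9 CPM in the *Asgr1*-/- livers, without overlap, and its log2 fold change was -0.66 (SE 0.16, edgeR adjusted p = 0.113). *Cpt1a*, the gate of mitochondrial fatty acid entry, differed by -0.38 (SE 0.10, edgeR adjusted p = 0.14). Of 15 tested feeding and lipogenic genes, 10 were higher and 5 lower (median 0.24). The groups did not overlap for 1 lower and 4 higher genes of the 15, against 21.9% of all genes tested in either direction. *Elovl6*, a fatty acid elongase, was at 44.9, 35.8 and 34.7 CPM in the WT livers and at 82.6, 71.3 and 60.3 CPM in the *Asgr1*-/- livers. The *Elovl6* groups did not overlap, and the log2 fold change was 0.89 (SE 0.15, edgeR adjusted p = 0.0543). Over the 15 alternatives its adjusted p lay between 1.2e-06 and 0.22 and was under 0.05 in 7. Of 11 tested LXR targets, a group that includes *Lpl* and *Pltp* in mouse, 3 were higher and 8 lower (median -0.08). An unadjusted p under 0.05 was found for 0 of the 11, against 15.5% of all genes tested. *Abcc3* (0.36, edgeR adjusted p = 0.333) and *Lpcat3* (-0.23, edgeR adjusted p = 0.479) had the smallest p values there.

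**Figure D4:**
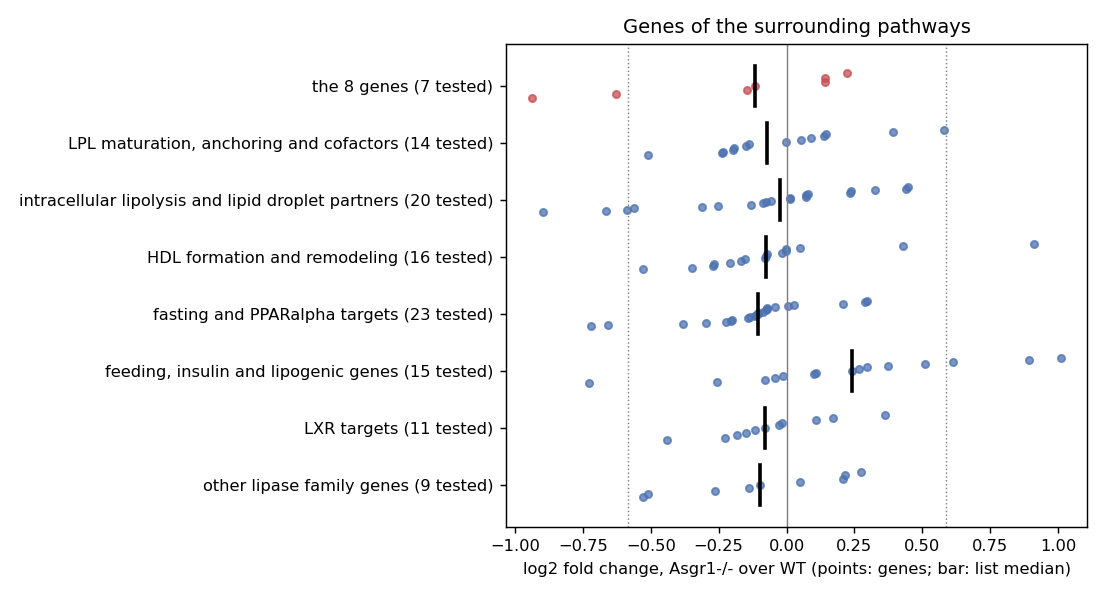
Log2 fold change (*Asgr1*-/- over WT, horizontal axis) of each tested gene of the 8 and of the 7 pathway lists; points are genes, vertical bars list medians and dotted lines a 1.5-fold change. List medians run from -0.12 for the 8 genes to 0.24 for the feeding and lipogenic genes.

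**Figure D5:**
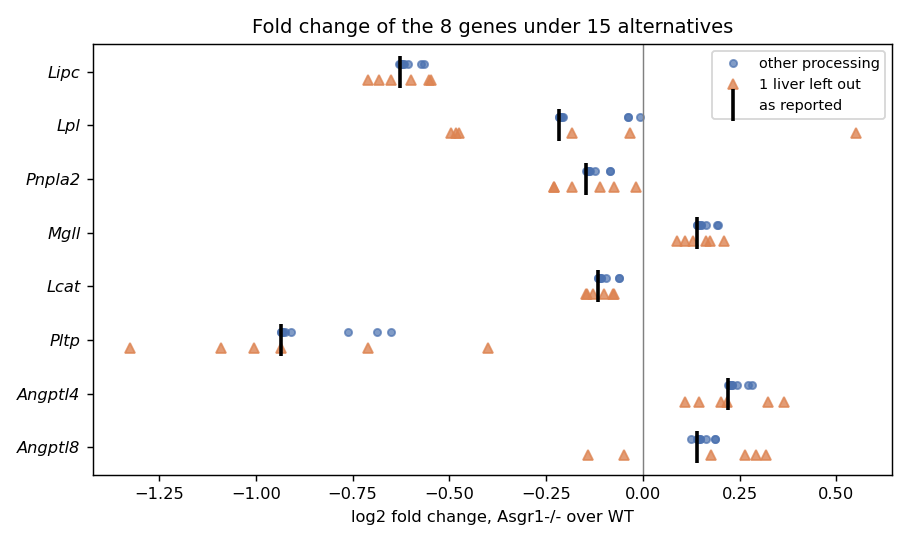
Log2 fold change of the 8 genes as reported (black bars), under 9 other ways of processing (circles) and with 1 liver left out (triangles). *Lipc* stays between -0.71 and -0.55, whereas *Lpl* and *Angptl8* cross 0 when WT liver 3 is left out, and *Angptl8* also without *Asgr1*-/- liver 3.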

How the data were processed

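Liver RNA of 3 WT and 3 *Asgr1*-/- mice was measured by RNA-Seq, with 1 library per mouse. The authors deposited raw counts per gene and, beside them, FPKM values; recomputing FPKM from the deposited counts and exonic lengths gave values within 0.005. The submitters' processing notes name GRCm38 and DESeq2 1.6.3, while no aligner or counter is named. Gene models and overlaps come from GENCODE annotation of GRCm38, and upstream sequences from RefSeq (GRCm38.p6).

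The 10167 genes whose mean FPKM reached 1 (98.9% of counts) were tested on counts with edgeR 4.0.16 in R 4.3.3, using TMM normalization and the two-sided quasi-likelihood test. P values were adjusted by Benjamini-Hochberg over all genes tested. Calls needed a fold above 1.5 and an adjusted p under 0.05. *Lpl* was under the filter and was tested in a fit without it. Single genes also had an exact permutation test over livers. Alternatives covered other size factors and filters, DESeq2 1.42.0, limma 3.58.1 on log2(FPKM + 0.1) and log2(FPKM + 1), a robust fit, the replicate number as a block, and leaving out each liver. The procedure was tested on simulated data. Depth was similar between libraries, and no batch is named in the labels. Replicates differed by more than counting noise, with a chi-square of 17.5 to 48.8 per degree of freedom.

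The 8 genes and the lists were chosen with earlier results of these data known. In each pathway list, and in each marker list set beside a result, the text names each gene that passed, and otherwise the 2 tested genes with the smallest p; some of these are not reported here. It also names gene models that overlap one of the 8 and, for the 3 of the 8 with the widest range, the 3 tested genes most like each. Functional annotation columns were not used. Plots were drawn with matplotlib 3.10.9 in Python 3.11.15.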

Additional observations from a re-analysis of the deposited data

How the results depend on the processing

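The direction of *Lipc*, *Pnpla2*, *Mgll*, *Lcat*, *Pltp* and *Angptl4* held under all 15 alternatives. Their log2 fold changes lay between -0.71 and -0.55, -0.23 and -0.02, 0.09 and 0.21, -0.15 and -0.06, -1.33 and -0.40, and 0.11 and 0.36, in that order. *Lpl* ranged from -0.50 to 0.55 and *Angptl8* from -0.14 to 0.32 when 1 liver was left out; *Lpl* was 0.55 without WT replicate 3, and *Angptl8* was -0.05 without WT replicate 3 and -0.14 without *Asgr1*-/- replicate 3. Of the 8 genes, 0 were called as reported, 2 (*Lipc* and *Pltp*) with no filter, 1 (*Lipc*) with DESeq2, and 0 to 1 with 1 liver left out (*Lipc*, without WT replicate 3). Over all genes tested, 30 were called as reported, 70 with the filter at 0.1 FPKM, 465 with no filter, 248 with DESeq2, 80 with a robust fit, and 11 and 16 with limma at a pseudocount of 0.1 and 1. With 1 liver left out the count was between 3 and 288: 52, 11 and 288 without WT replicate 1, 2 and 3, and 3, 5 and 3 without *Asgr1*-/- replicate 1, 2 and 3. Of the pathway genes, 0 passed as reported, 1 with the filter at 0.1 FPKM, 10 with no filter, 6 with DESeq2, 3 with a robust fit, and 0 to 9 with 1 liver left out (1 without WT replicate 1 and 9 without WT replicate 3). The cause of these moves was not tested. Replicate numbers are shared between the genotypes, but deviations of same-numbered livers correlated at -0.14, 0.04 and -0.03, so they were not taken as pairs. With the replicate block 23 genes were called, 0 of the 8 and 1 of the pathway genes. The adjusted p of *Pltp* was under 0.05 in 1 of the 15 alternatives, the fit with no filter. As reported, its 95% interval ran from -1.91 to 0.03, and its highest WT value was 4.28 times the lowest. The part of this spread between WT livers in the *Pltp* difference was not tested.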
